A study of Mus musculus with 12 samples.

Results

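Chemokines, interleukins and their receptors were followed in the 3T3-L1 line of mouse preadipocytes, whose cells become lipid-filled adipocytes once a mix of hormones is added. The members were all protein-coding genes of the count table whose symbol begins with Ccl, Cxcl, Ccr, Cxcr or Il followed by a digit, together with Cx3cl1, Csf1 and Tnf. This gave 146 of the 54532 genes in the table, under 138 symbols, with 9 of the 146 on unplaced scaffolds. By role they were 30 CC chemokines, 13 CXC or CX3C chemokines, 17 chemokine receptors, 41 interleukins or other ligands, 43 interleukin receptors or receptor subunits, and 2 others.

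RNA of 4 groups of 3 libraries was sequenced in bulk on day 6. The groups were cells given the cocktail with luteolin (DMI + luteolin), cells given the cocktail with quercetin (DMI + quercetin), cells given the cocktail alone (DMI) and untreated cells, all labelled wild type. The cocktail held 1 µM dexamethasone, 0.5 mM IBMX and 10 µg/ml insulin, with insulin alone in a later feed. Luteolin and quercetin are plant flavonoids, and quercetin carries a hydroxyl group on the central ring that luteolin lacks. The labels used here give no dose or exposure time for either compound, so doses are not known to match. The protocol text does not vary between samples, and untreated cells were recognised by their title and treatment label alone. All libraries come from a single cell line. Nothing in the labels names separate cultures behind the 3 libraries of a group, and the p-values then cover only library-to-library spread, which may be technical.

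Chemokines are small secreted proteins that guide white blood cells along gradients by binding receptors of the seven-helix type. Interleukins act through receptor chains that pair up. The interleukin-6 family shares the signalling chain gp130, encoded by Il6st. Several receptors of the interleukin-1 family share the accessory chain encoded by Il1rap, and interleukin-17 acts through pairs of the Il17r chains. In fat tissue, preadipocytes and stromal cells are known sources of Ccl2, Cxcl12, Csf1 and Il6, and Tnf is known to block the formation of adipocytes. Many of these ligand genes are textbook targets of NF-kB, and glucocorticoids such as dexamethasone are known to dampen them.

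Library totals ran from 14522182 to 19436796 counts, and 14855 genes passed the filter on low counts. The adipocyte genes showed that the third library of each induced group stood apart. Fabp4, a fatty acid carrier, had 1812, 2076 and 794 CPM (counts scaled to library size) in the DMI + luteolin libraries, 1197, 1274 and 205 CPM in the DMI + quercetin libraries, 2958, 3896 and 840 CPM in the DMI libraries and 0.933, 2.80 and 7.25 CPM in the untreated libraries. Counts of called members are given with and without those libraries. White blood cell markers were low but not all absent. The macrophage genes Adgre1 and C1qb and the T cell genes Cd3e, Cd3d, Cd2 and Trac had 0 counts in every library. However, 4 of the 12 macrophage markers passed the filter on low counts. The highest of the 12 were Lyz2 and Mpeg1, with 756 and 725 counts over all libraries. The 12 macrophage markers summed to 7.57 to 10.3 CPM with luteolin, 7.30 to 9.91 CPM with quercetin, 7.05 to 8.43 CPM with DMI and 12.9 to 15.5 CPM in untreated cells. The 8 preadipocyte and fibroblast markers summed to 15200 to 20800 CPM, 19000 to 21800 CPM, 19100 to 26700 CPM and 38500 to 40200 CPM in the same order of groups.

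Most members were absent or nearly so. Of the 146 members, 35 had no count in any library and 36 had 1 to 9 counts over all 12 libraries. A further 25 had 10 counts or more but did not pass the filter, and 50 passed it, under 49 symbols. That is 34.2% of the members, against 27.2% of all genes in the table. The tested members were 10 CC chemokines, 6 CXC or CX3C chemokines, 1 chemokine receptor, 8 interleukins or other ligands, 24 interleukin receptors or subunits and 1 other, the secreted interleukin-18 inhibitor gene Il18bp. Il11ra2 is listed as 3 near-identical copies, of which 2 passed and the other had 1 count. Reads can be split between them, so its values are uncertain.

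Chemokine receptors had the smallest share of genes past the filter. Of the 17 receptor genes, 5 had no count at all and only Ccr10, a receptor for Ccl27 and Ccl28, passed the filter. Cxcr4, the classical receptor for the most abundant chemokine, Cxcl12, had 0 counts in all 12 libraries. Ccr2, the receptor for Ccl2 and Ccl7, had counts in a single library, at 0.187 CPM in the first untreated one. Tnf had 0 of 199789794 counts over all libraries together, which allows up to 0.0150 CPM by the floor of 3 counts and for counting error only. Il10, Il17a and Il3 were also at 0 counts throughout.

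On the deposited FPKM scale, which divides by gene length and so allows levels of different genes to be set side by side, Cxcl12 was the highest member in all 4 groups. Cxcl12 encodes a chemokine that stromal cells make constantly. Its mean level was 184 ± 14.8 FPKM with luteolin, 204 ± 12.9 FPKM with quercetin, 142 ± 23.8 FPKM with DMI and 211 ± 1.68 FPKM in untreated cells (SD, n = 3 each). The members next to it in DMI cells were Il17rc at 51.9 ± 13.5, Il6st at 30.1 ± 3.31, Ccl7 at 29.9 ± 27.2, Il11ra1 at 28.2 ± 3.65, Ccl2 at 22.1 ± 23.4 and Csf1 at 19.7 ± 10.6 FPKM (SD, n = 3). Cxcl12 and Il17rc stood clear of the genes below them in every DMI library except the third, where Ccl7 (61.4 FPKM) and Ccl2 (49.2 FPKM) lay above Il17rc (37.4 FPKM). From Il6st to Csf1 neighbouring genes in this order did not differ beyond their spread.

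The first comparison, DMI against untreated, shows where these genes stood after induction. Of the 50 tested members, 6 rose and 9 fell at an adjusted p under 0.05 by edgeR's quasi-likelihood test, which is 30.0% of them. Over all 14855 genes tested, 27.1% were called, 14.7% of them higher and 12.4% lower, so the members' share lay near the background. All 6 members that rose were interleukin receptor genes, Il2ra, Il15ra, Il6ra, Il31ra, Il17rc and Il17re. The 9 that fell were 6 ligand genes, Cxcl12, Cxcl5, Cx3cl1, Ccl5, Csf1 and Il18, and 3 receptor genes, Il13ra1, Il17rd and Il6st. In this fit no CC, CXC or other ligand gene passed as higher. Lower were 1 of 10 CC chemokines, 3 of 6 CXC or CX3C chemokines and 2 of 8 interleukins or other ligands. That split depended on the setting. Ccl11, a CC chemokine, had 2.14, 2.81 and 4.99 CPM in DMI libraries, against 1.37, 1.97 and 1.39 CPM in untreated libraries. It was called higher without a low-count filter, with a block for replicate number and without DMI + quercetin library 1. Cxcl1 was called higher without DMI library 3, alone or with library 3 of the other induced groups. The median log2 fold change was -0.19 over the 50 members and -0.04 over all genes tested. In bulk RNA, fewer cells of a kind and less RNA per cell cannot be told apart.

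**Figure D1:**
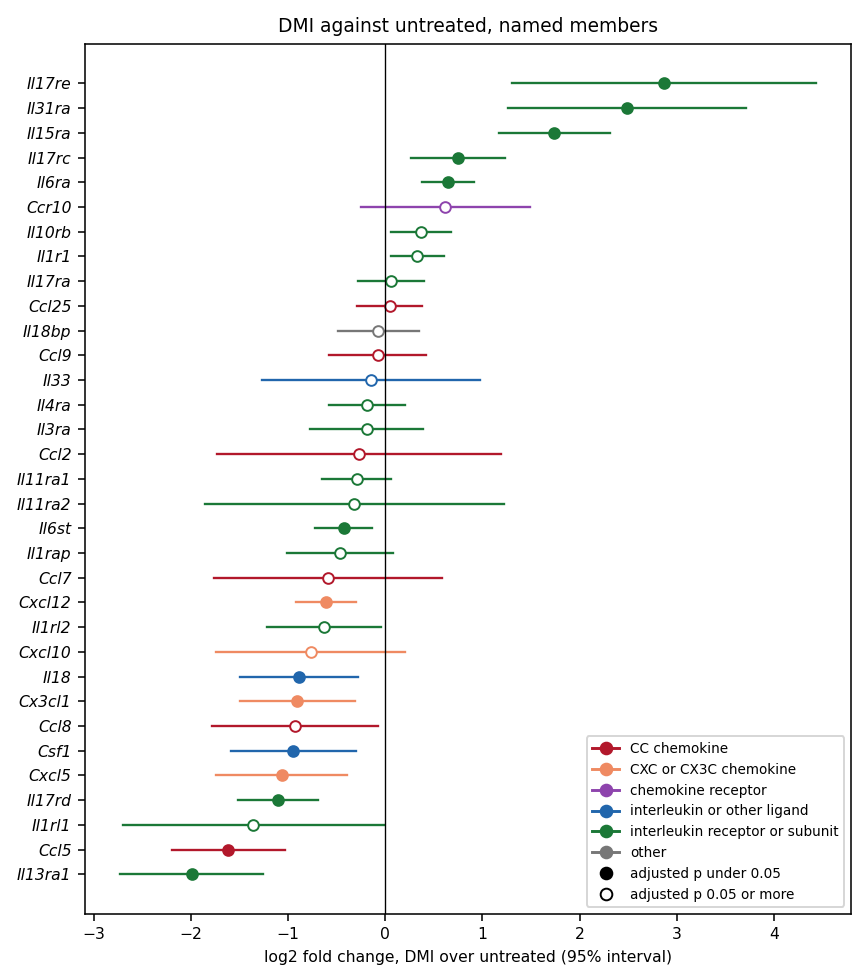
Log2 fold change of the named members in DMI over untreated cells (x axis, log2), with points for the fitted value, bars for its 95% interval, colours for the role and filled points for an adjusted p under 0.05. Il2ra is left out because the untreated libraries had 0 counts of it. Filled points on the right are all interleukin receptor genes, led by Il17re at 2.87, and those on the left reach -1.99 at Il13ra1.

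Il2ra, the alpha chain that gives the interleukin-2 receptor its high affinity, had the smallest p. It had 92, 121 and 36 counts in the DMI libraries, which is 5.79, 8.29 and 2.22 CPM, against 0 counts in all 3 untreated libraries. The groups did not overlap, and the third DMI library was the lowest of the DMI ones. The floor of 3 counts over the untreated group gives a bound without the spread between libraries or the counting error of the DMI counts. Set against that floor, Il2ra was at least 87.7-fold higher with DMI (adjusted p = 0.000337 by edgeR). Its neighbour Il15ra, the alpha chain that binds interleukin-15 and presents it to nearby cells, had 13.2, 15.4 and 10.0 CPM in DMI libraries, against 5.41, 2.98 and 3.14 CPM in untreated libraries. Every DMI library lay above every untreated one, and Il15ra rose 3.34-fold (log2 fold change 1.74, SE 0.26, adjusted p = 0.000866). Of the chains these alpha chains signal with, Il2rb stood at 2.02 ± 0.375 CPM with DMI and 1.56 ± 0.424 CPM in untreated cells (SD, n = 3 each; log2 fold change 0.37, adjusted p = 0.475). Il2rg, the common gamma chain, was nearly silent, with 29 counts over all 12 libraries. Il2 itself had 28 counts and Il15 had 25.

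Il2ra and Il15ra lie side by side on chromosome 2, at chr2:11642807-11693193 and chr2:11705290-11734317 on the plus strand (GRCm38), and no other protein-coding gene of the table lies in the 91.5 kb they span. Because they moved together, the 150 bases before each RefSeq start site (build GRCm38.p6) are shown, chr2:11642642-11642791 for Il2ra and chr2:11705143-11705292 for Il15ra, both on the plus strand and 5′ to 3′. Matches to 5 motifs would stand in capitals: a kappaB site of NF-kB (GGG, any 2 bases, TT, any base, CC), an AP-1 site (TGANTCA), a GAS site of STAT factors (TTCNNNGAA), a spaced glucocorticoid receptor palindrome (ACANNNTGT) and a TATA box (TATAAA), each searched on both strands. Neither window holds a match.
Il2ra: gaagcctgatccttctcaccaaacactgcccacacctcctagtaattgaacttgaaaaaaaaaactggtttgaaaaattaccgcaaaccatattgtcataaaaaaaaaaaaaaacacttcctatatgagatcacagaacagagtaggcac
Il15ra: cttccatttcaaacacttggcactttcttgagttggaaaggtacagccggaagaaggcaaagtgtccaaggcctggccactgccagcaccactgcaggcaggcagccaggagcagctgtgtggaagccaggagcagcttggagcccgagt
No match says only that these letters are not in these windows.

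The chains of the interleukin-6 receptor moved in opposite directions. Il6ra, the chain that binds interleukin-6, had 23.3, 24.7 and 25.0 CPM in DMI libraries, against 15.9, 16.2 and 14.5 CPM in untreated libraries, and rose by 0.65 on the log2 scale (SE 0.12, adjusted p = 0.00325). Its signalling partner Il6st had 332, 298 and 368 CPM in DMI libraries, against 444, 451 and 448 CPM in untreated libraries (log2 fold change -0.43, SE 0.14, adjusted p = 0.0359). The 3 libraries of each group were separate for both genes, but the call for Il6st was lost under 10 of 19 alternative settings (adjusted p up to 0.177), RLE scaling and the unfiltered fit among them. Il31ra, the interleukin-31 receptor chain that lies beside Il6st on chromosome 13, rose at low counts, with 44 over the DMI group, against 8 over the untreated group (log2 fold change 2.49, SE 0.56, adjusted p = 0.00747). The ratio of those counts was 5.81, with a 95% counting interval of 2.71 to 14.3.

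The interleukin-17 receptor genes split. Il17rc, a chain of the receptor for interleukin-17A and its close relative F, had 145, 172 and 99.0 CPM in DMI libraries, against 81.4, 85.4 and 80.1 CPM in untreated libraries (log2 fold change 0.75, SE 0.22, adjusted p = 0.0261). Its neighbour Il17re, the receptor chain for interleukin-17C, had 57 counts over the DMI group, against 8 over the untreated group (log2 fold change 2.87, SE 0.72, adjusted p = 0.0124). Both lie on the plus strand of chromosome 6, Il17re at chr6:113458484-113470758 and Il17rc at chr6:113471427-113483140. Il17rd, a related membrane protein also known as a brake on FGF signalling, fell: it had 34.6, 31.5 and 51.2 CPM in DMI libraries, against 84.7, 81.3 and 85.6 CPM in untreated libraries (log2 fold change -1.10, SE 0.19, adjusted p = 0.00168). For Il17ra, the chain common to the family, the log2 fold change was 0.06 (SE 0.16, adjusted p = 0.809).

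Il13ra1, a chain of the receptor for interleukin-13 and interleukin-4, had the largest fall among the tested members. It had 8.62, 6.78 and 16.0 CPM in DMI libraries, against 42.3, 40.3 and 42.3 CPM in untreated libraries, and was 3.97-fold lower with DMI (log2 fold change -1.99, SE 0.34, adjusted p = 0.00168). The third DMI library was again the one nearest to the untreated level. Il4ra, its partner chain, had 17.1 ± 2.94 CPM with DMI and 19.5 ± 1.66 CPM in untreated cells (SD, n = 3 each; adjusted p = 0.477). The ligand Il13 had 16, 20 and 2 counts in the DMI libraries, 38 in all, and 0 over the untreated group. Pooled over the group, that is at least 13.4-fold by the same floor. This bound leaves out the spread between libraries, and the third DMI library held only 2 of the counts. Il13 did not pass the filter of the 12-library fit. The 13 alternative settings that tested it all called it higher (adjusted p = 2.45e-05 to 0.0391 by edgeR or DESeq2). Fits without the first or the second DMI library, with RLE scaling, with a block or with only the 6 libraries compared did not test it. Where a filter was used, Il13 passed only through the DMI libraries, where it is high, so those calls are not separate support. Il1rn, the secreted blocker of the interleukin-1 receptor, did not pass the filter of the 12-library fit either. It had 26 counts over the DMI group, against 2 over the untreated group (ratio 13.7, 95% counting interval 3.44 to 119). Both alternatives that tested it called it higher, DESeq2 at an adjusted p of 0.0130 and edgeR without a low-count filter at 0.00534.

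**Figure D2:**
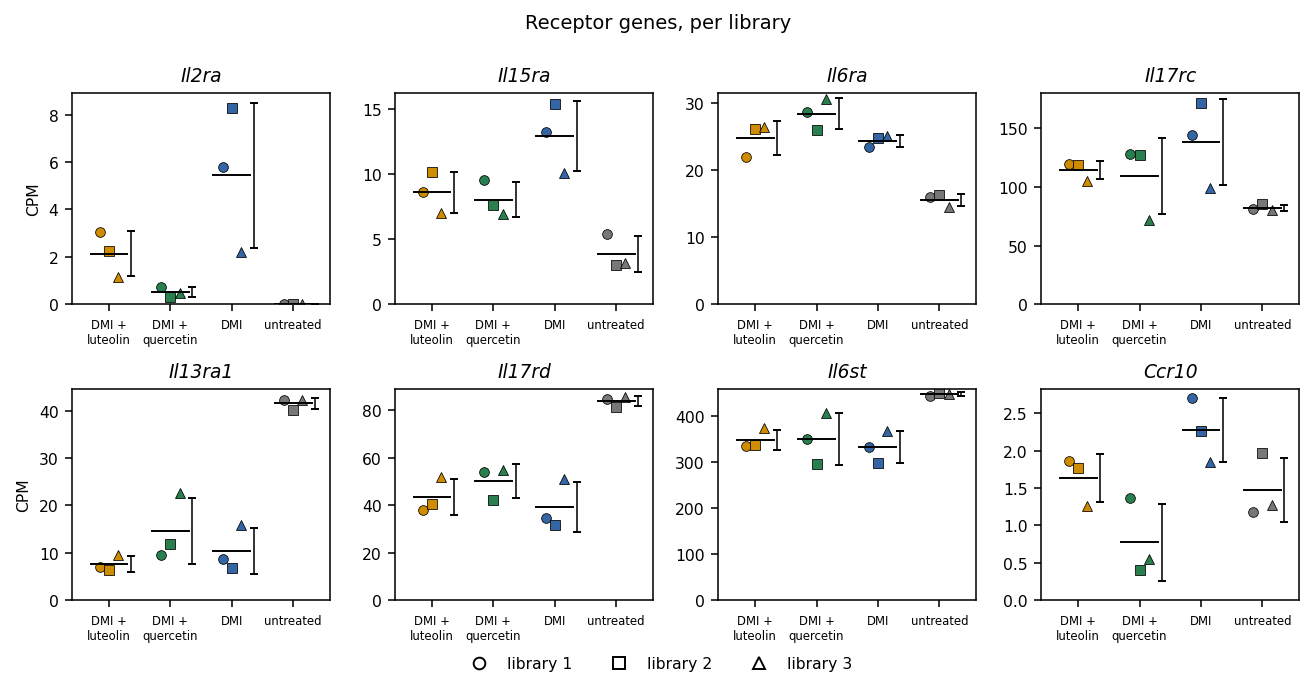
CPM of 8 receptor genes (y axis, linear and from 0) in the 4 groups, with a point per library, its shape giving the replicate number, a line for the mean and a bar for the SD (n = 3). Il2ra, Il15ra, Il6ra and Il17rc lie higher in DMI than in untreated cells, and Il13ra1, Il17rd and Il6st lie lower. Il2ra, Il15ra, Il17rc and Ccr10 have their lowest induced mean with quercetin.

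Among ligands, Cxcl12 fell with a small spread. It had 1069, 1038 and 1375 CPM in DMI libraries, against 1774, 1758 and 1780 CPM in untreated libraries (log2 fold change -0.61, SE 0.14, adjusted p = 0.00833). Csf1, the growth factor of macrophages, had 72.0, 71.7 and 167 CPM in DMI libraries, against 194, 187 and 217 CPM in untreated libraries, and fell 1.92-fold (adjusted p = 0.0329). Both genes were highest in the third DMI library, which stayed below the untreated ones. Cx3cl1, the membrane-tethered chemokine fractalkine, had 12.8, 15.1 and 31.6 CPM in DMI libraries, against 36.9, 35.1 and 39.6 CPM in untreated libraries (log2 fold change -0.91, SE 0.27, adjusted p = 0.0279). Cxcl5, which attracts neutrophils, had 3.27, 2.47 and 6.83 CPM in DMI libraries, against 8.70, 7.16 and 10.6 CPM in untreated libraries (log2 fold change -1.07, SE 0.31, adjusted p = 0.0250). Here too the groups did not overlap, although the third DMI library came close to the lowest untreated one. Without that library the log2 fold changes were -1.47 for Csf1, -1.42 for Cx3cl1 and -1.61 for Cxcl5, each larger than with it.

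Ccl5, which attracts T cells and monocytes, was the only CC chemokine called in the main fit. It had 1.76, 1.44 and 2.52 CPM in DMI libraries, against 5.28, 6.50 and 5.80 CPM in untreated libraries, and was 3.06-fold lower with DMI (log2 fold change -1.61, SE 0.27, adjusted p = 0.00150). Il18, a cytokine of the interleukin-1 family, had 1.57, 1.44 and 2.65 CPM in DMI libraries, against 3.42, 3.28 and 3.81 CPM in untreated libraries (log2 fold change -0.89, SE 0.28, adjusted p = 0.0332). Its inhibitor Il18bp had 5.36 ± 0.765 CPM with DMI and 5.62 ± 0.280 CPM in untreated cells (SD, n = 3 each; adjusted p = 0.825). Ccl25 and Ccl9 had log2 fold changes of 0.05 and -0.08, with adjusted p of 0.857 and 0.837. The monocyte attractants Ccl2 and Ccl7 and the alarmin Il33 did not pass either, with log2 fold changes of -0.27, -0.59 and -0.15 and 95% intervals of -1.73 to 1.19, -1.76 to 0.58 and -1.27 to 0.97. Those intervals leave room for falls of more than 2-fold. Without the third DMI library the log2 fold changes were -1.63 for Ccl2 (adjusted p = 0.0448), -1.66 for Ccl7 (adjusted p = 0.0105) and -0.91 for Il33 (adjusted p = 0.173).

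**Figure D3:**
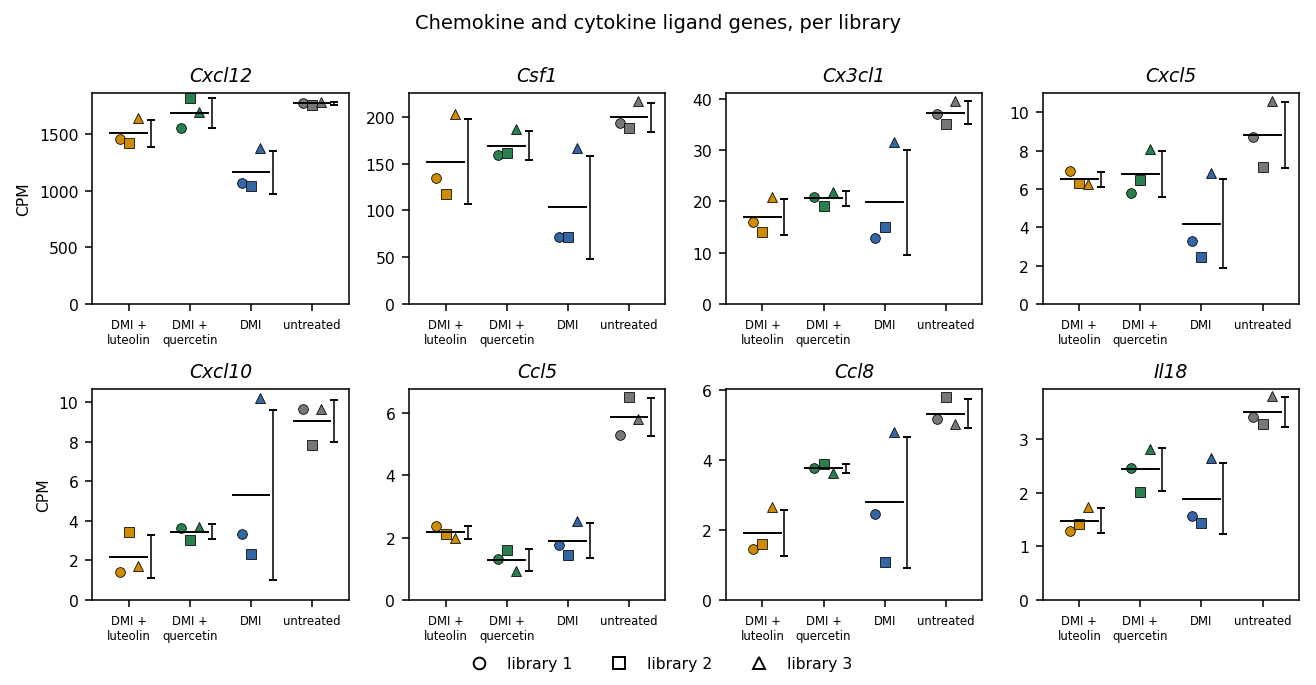
CPM of 8 ligand genes (y axis, linear and from 0) in the 4 groups, with a point per library, its shape giving the replicate number, a line for the mean and a bar for the SD (n = 3). In Csf1, Cx3cl1, Cxcl5, Cxcl10, Ccl8 and Il18 the third DMI library lies above the other DMI libraries, and Ccl5 lies lower in every induced library than in untreated ones.

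Chemokine genes are textbook targets of NF-kB, so the 150 bases before the start site were searched for the same 5 motifs. The set of RefSeq promoters used here held 37 of the 49 tested members on chromosomes. The others were not searched, among them Ccl2, Ccl5, Ccl7, Ccl11 and Cxcl5. A kappaB match was present in 4 of the 37, Cxcl1, Cxcl10, Ccl9 and Il6, against 2.63% of 32851 RefSeq windows of this length. AP-1 matched in 3 (4.24% of all windows), the TATA box in 3 (7.57%), the glucocorticoid palindrome in 2 (3.15%) and the GAS site in 0 (4.09%). The RefSeq start site closest to the gene start of the count table was used, and it can belong to another promoter. The largest offsets were 60454 bases for Il11ra1, -13698 for Il31ra, -10187 for Il16 and 3870 for Il11ra2. Il16 is among the genes with an AP-1 match and with a glucocorticoid palindrome. The 4 windows with a kappaB match are shown 5′ to 3′ with all motif matches in capitals: chr5:90891095-90891244 on the plus strand for Cxcl1, chr5:92348890-92349039 on the minus strand for Cxcl10, chr11:83578637-83578786 on the minus strand for Ccl9 and chr5:30012964-30013113 on the plus strand for Il6 (GRCm38.p6).
Cxcl1: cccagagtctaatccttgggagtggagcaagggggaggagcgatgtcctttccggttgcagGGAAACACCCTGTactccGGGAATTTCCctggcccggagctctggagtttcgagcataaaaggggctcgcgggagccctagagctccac
Cxcl10: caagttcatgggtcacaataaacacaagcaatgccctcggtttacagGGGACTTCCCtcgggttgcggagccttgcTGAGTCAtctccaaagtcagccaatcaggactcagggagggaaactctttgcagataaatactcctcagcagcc
Ccl9: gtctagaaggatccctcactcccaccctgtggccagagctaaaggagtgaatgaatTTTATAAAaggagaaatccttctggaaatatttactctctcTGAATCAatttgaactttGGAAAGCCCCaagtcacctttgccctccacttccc
Il6: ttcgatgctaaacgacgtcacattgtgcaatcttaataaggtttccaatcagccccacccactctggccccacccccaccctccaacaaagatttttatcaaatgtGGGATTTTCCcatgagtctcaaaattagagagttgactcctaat
Counted from the start site, the kappaB matches begin at -89 and -71 in Cxcl1, at -103 in Cxcl10, at -35 in Ccl9 and at -44 in Il6. The first of these in Cxcl1 overlaps a glucocorticoid palindrome at -85. In Cxcl10 the second capital run is an AP-1 match, and Ccl9 also holds an AP-1 match and a pair of overlapping TATA matches. A match is a description of the letters and not evidence of binding.

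The genes with these windows did not share a direction in DMI against untreated, and none passed. Cxcl1, a neutrophil attractant, had 4.34, 3.49 and 2.34 CPM in DMI libraries, against 2.11, 2.45 and 1.93 CPM in untreated libraries (log2 fold change 0.65, adjusted p = 0.104). Cxcl10, an interferon-inducible attractant of T cells, had 3.34, 2.33 and 10.2 CPM in DMI libraries, against 9.64, 7.81 and 9.67 CPM in untreated libraries (log2 fold change -0.77, adjusted p = 0.228). In Cxcl10 a single DMI library, the third, lay above all untreated ones. Il6 was scarce, at 0.357 ± 0.277 CPM with DMI and 0.671 ± 0.231 CPM in untreated cells (SD, n = 3 each; adjusted p = 0.323).

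Of the 15 calls, 8 held under all 19 alternative settings: Il2ra, Il15ra, Il6ra, Il31ra, Cxcl12, Ccl5, Il13ra1 and Il17rd. The others were lost under 2 to 10 settings each, mostly when an untreated library or the first or second DMI library was left out. Without the first DMI library 9 members were called, with 12.7% of all genes called, and without the second 8, with 12.3% of all genes called. Leaving out the third DMI library alone gave 27 of 52 tested members, with 36.4% of all genes called. Leaving out the third library of all 3 induced groups gave 30 of 52, of which 10 rose and 20 fell, with 52.8% of all genes called, 27.5% higher and 25.2% lower. It added Ccl2, Ccl7, Ccl8, Cxcl10, Il11ra1, Il11ra2, Il18rap, Il1rap, Il1rl1, Il1rl2 and Il33 to those that fell. To those that rose it added Cxcl1, Il10rb, Il13 and Il1r1, with Il13 tested there only through the DMI libraries, where it is high. By construction those settings narrow the spread within the induced groups.

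Signalling genes around these receptors were taken from lists chosen with earlier results of these data known, and their counts stand beside the 14.7% of all genes called higher and 12.4% called lower with DMI. In the NF-kB, TNF and Toll-like receptor list 2 of 31 tested genes rose and 4 fell with DMI, with a median log2 fold change of -0.06. The NF-kB inhibitor Nfkbia rose, at 45.4 CPM with DMI and 22.8 CPM in untreated cells (adjusted p = 0.000311). The Toll-like receptor gene Tlr3 fell 2.46-fold (adjusted p = 0.0135), and Tnfrsf1b, a receptor for TNF, fell 1.98-fold (adjusted p = 0.0229). In the gp130 and JAK-STAT list 2 of 24 rose and 5 fell, with a median of -0.11. Jak3, the kinase that pairs with the common gamma chain, had 51.4, 54.5 and 22.4 CPM in DMI libraries, against a mean of 13.4 CPM in untreated libraries, and rose 3.19-fold (adjusted p = 0.00624). Stat5a, a transcription factor downstream of interleukin-2 receptors and of growth hormone, rose 3.01-fold (adjusted p = 0.00197), and Lif, a gp130 cytokine, fell 3.75-fold (adjusted p = 0.0123).

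Among other chemokine system genes and colony stimulating factors 2 of 9 rose and 1 fell. Rarres2, which encodes the adipocyte chemoattractant chemerin, had 171, 187 and 51.3 CPM in DMI libraries, against 6.46, 7.70 and 5.62 CPM in untreated libraries, and rose 20.6-fold (adjusted p = 0.000549). Csf2rb, the chain shared by the interleukin-3, interleukin-5 and GM-CSF receptors, rose, with 0.881, 1.23 and 0.123 CPM in DMI libraries, against 0 counts in untreated libraries (adjusted p = 0.0232). Cd74, a receptor for the cytokine MIF, fell 7.81-fold (adjusted p = 0.000574). In the list of inflammatory target genes 5 of 11 rose and 3 fell, against the same 14.7% and 12.4% of all genes. Hp, Lcn2 and C3, which encode secreted proteins of the acute phase, rose 175-fold, 43.8-fold and 32.0-fold (adjusted p = 0.000234, 0.000125 and 0.000175). All of these are also known as products of adipocytes.

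The third library of each induced group moved several members together. Ccl2 had 25.6, 18.4 and 60.9 CPM with luteolin, 26.3, 34.7 and 95.9 CPM with quercetin, 10.8, 8.77 and 55.4 CPM with DMI and 28.4, 25.4 and 36.8 CPM in untreated cells. Ccl7 had 22.5, 19.6 and 40.9 CPM, 23.6, 39.4 and 76.3 CPM, 11.6, 11.2 and 48.7 CPM, and 39.9, 29.9 and 38.0 CPM in the same order of groups. In both genes the third library was the highest of each induced group, and the third DMI library was above every untreated one. Il1rl1, the interleukin-33 receptor, had 9.08, 8.55 and 15.6 CPM with luteolin, 10.2, 11.4 and 34.0 CPM with quercetin, 2.08, 3.15 and 12.9 CPM with DMI and 14.6, 10.8 and 21.2 CPM in untreated cells. Il33, its ligand, had 1.92, 1.42 and 4.26 CPM, 4.91, 6.17 and 14.1 CPM, 3.78, 2.67 and 9.97 CPM, and 5.35, 5.97 and 6.95 CPM in that order. These libraries were also the lowest in Fabp4 within their groups. The part of the lower adipocyte level in these values was not tested.

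**Figure D4:**
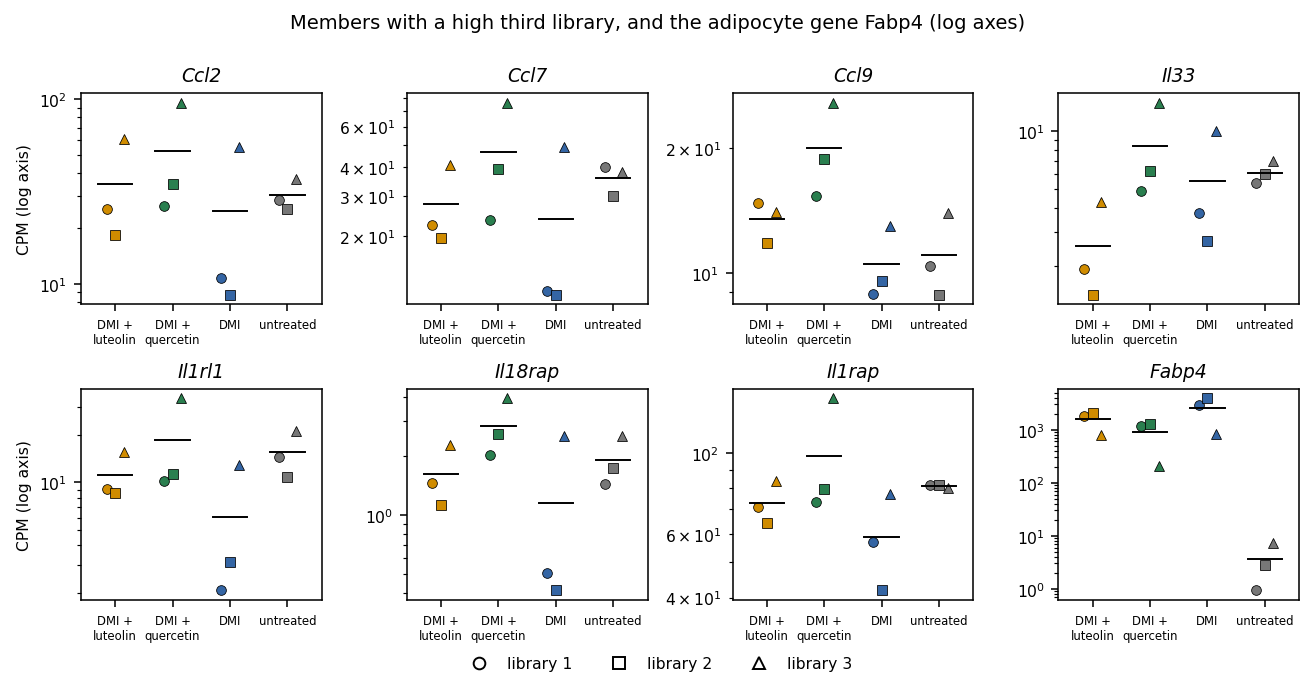
CPM of 7 members and of Fabp4 (y axis, logarithmic) in the 4 groups, with a point per library, triangles for the third library and a line for the mean of 3. The triangle is the highest point of every induced group in Ccl2, Ccl7, Il33, Il1rl1, Il18rap and Il1rap, and the lowest of every induced group in Fabp4.

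Several of these genes are neighbours. Ccl2, Ccl7, Ccl11, Ccl12, Ccl8 and Ccl1 lie within chr11:82035571-82305690 (GRCm38), where 4 of the 6 were tested. Il1r1, Il1rl2, Il1rl1 and Il18rap are the 4 tested genes of a cluster of 6 interleukin-1 receptor family genes at chr1:40074079-40551705. In the chromosome 1 cluster Il1r1, the signalling receptor for interleukin-1, had 82.5 ± 6.64 CPM with DMI and 65.6 ± 3.86 CPM in untreated cells (SD, n = 3 each; adjusted p = 0.0673). Il1rl2, the interleukin-36 receptor, had 29.9 ± 12.4 CPM with DMI and 46.2 ± 6.45 CPM in untreated cells (SD, n = 3 each; adjusted p = 0.104). Members of 1 cluster thus did not all lie on the same side of the untreated level, and neither gene passed the threshold.

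The next comparison set DMI + quercetin against DMI. Of the 50 tested members 1 was called, Il2ra, which fell; over all genes 1.01% were called, 0.162% higher and 0.848% lower. Il2ra had 0.710, 0.303 and 0.491 CPM in DMI + quercetin libraries, against 5.79, 8.29 and 2.22 CPM in DMI libraries. Every quercetin library lay below every DMI library, and Il2ra was 10.7-fold lower (log2 fold change -3.42, SE 0.57, adjusted p = 0.0420). Its 27 counts over the quercetin group were at least 8.17-fold above the untreated group, which had 0 counts, by the floor of 3. That bound leaves out the spread between libraries and the counting error of the 27 counts. The call was lost under 10 of 19 alternative settings, with adjusted p up to 0.197, among them the fit of the 6 libraries compared and leaving out any 1 untreated library, the first or second DMI or luteolin library, or a quercetin library other than the first. The log2 fold change stayed between -3.80 and -2.99.

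Next in order of p were 3 members that did not pass. Ccl9, a CC chemokine that attracts monocytes, had 15.3, 18.9 and 25.8 CPM in DMI + quercetin libraries, against 8.93, 9.59 and 13.0 CPM in DMI libraries (log2 fold change 0.93, SE 0.23, adjusted p = 0.0679). Cxcl12 had 1551, 1817 and 1690 CPM in DMI + quercetin libraries, against 1069, 1038 and 1375 CPM in DMI libraries (log2 fold change 0.54, SE 0.14, adjusted p = 0.0784). Ccr10 had 1.36, 0.404 and 0.552 CPM in DMI + quercetin libraries, against 2.71, 2.26 and 1.85 CPM in DMI libraries (log2 fold change -1.54, SE 0.42, adjusted p = 0.0870). In all of these the groups did not overlap. DESeq2 called 4 members, these 3 and Il2ra, and 6.08% of all genes. Il15ra, the neighbour of Il2ra, had 9.50, 7.63 and 6.93 CPM in DMI + quercetin libraries, against 13.2, 15.4 and 10.0 CPM in DMI libraries (log2 fold change -0.68, SE 0.25, adjusted p = 0.153). Il13 had 0, 2 and 0 counts in the quercetin libraries, against 16, 20 and 2 in the DMI libraries. Pooled over each group the ratio was 0.0452, with a 95% counting interval of 0.00528 to 0.175 that leaves out the spread between libraries. Of 12 alternative settings that tested Il13, 3 called it lower (adjusted p = 0.00183 to 0.176 over the 12). These were no low-count filter, and leaving out the third DMI library alone or the third libraries of all induced groups. In the filtered fits Il13 was again tested only through the DMI libraries, where it is high.

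The median log2 fold change for quercetin was 0.29 over the 50 members and 0.02 over all genes, and 33 of 50 were positive. With the third libraries of all induced groups left out, 23 of 52 tested members were called, 18 higher and 5 lower, with 33.4% of all genes called, 17% higher and 16.4% lower. For Ccl2 the log2 fold change was then 1.67 (SE 0.21, adjusted p = 3.18e-05), against 1.06 (SE 0.68, adjusted p = 0.387) with all libraries. Csf1 had 1.18 (SE 0.10, adjusted p = 6.39e-07), against 0.70 (SE 0.29, adjusted p = 0.196) with all libraries. Leaving out the third DMI library alone gave 16 calls among members and 17.4% of all genes. Leaving out the first quercetin library gave 3, Ccl9, Ccr10 and Il2ra, and 3.78% of all genes.

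DMI + luteolin against DMI called 0 of the 50 members by edgeR, with 7 at an unadjusted p under 0.05. Over all genes 0.0202% were called, all lower. DESeq2 called 0 members and 0.296% of all genes. A fit of all 12 libraries blocked by replicate number called 0 members and 0.168% of all genes. The block within the 6 libraries compared, chosen after seeing the data, called 6 of 49 members, Ccl2, Csf1 and Cxcl12 higher and Il15ra, Il2ra and Il33 lower, with 6.58% of all genes called, 2.17% higher and 4.41% lower. In the fit without the block Cxcl12 had the smallest p, with 1459, 1422 and 1644 CPM in DMI + luteolin libraries, against 1069, 1038 and 1375 CPM in DMI libraries (log2 fold change 0.38, 95% interval 0.07 to 0.68, adjusted p = 0.729). Il2ra had 3.03, 2.24 and 1.13 CPM in DMI + luteolin libraries, against 5.79, 8.29 and 2.22 CPM in DMI libraries (log2 fold change -1.33, 95% interval -2.43 to -0.24, adjusted p = 0.732). For Cxcl12 the groups did not overlap; for Il2ra the first and second luteolin libraries lay above the third DMI library. Cxcl10 had 1.40, 3.42 and 1.73 CPM in DMI + luteolin libraries, against 3.34, 2.33 and 10.2 CPM in DMI libraries (log2 fold change -1.28, 95% interval -2.32 to -0.24, adjusted p = 0.731). Il18bp had 3.83 ± 0.290 CPM with luteolin and 5.36 ± 0.765 CPM with DMI (SD, n = 3 each; adjusted p = 0.751).

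With the third libraries of all induced groups left out, luteolin called 9 of 52 tested members, with 10.4% of all genes called, 4.14% higher and 6.23% lower. Higher were Ccl2, Ccl7, Csf1, Cxcl12, Cxcl5, Il1rap and Il1rl1, and lower were Il17rc and Il2ra. For Csf1 the log2 fold change was then 0.84 (SE 0.10, adjusted p = 0.000121), against 0.55 (SE 0.29, adjusted p = 0.872) with all libraries. Leaving out the third DMI library alone gave 2 calls, Csf1 and Cxcl5, and 1.7% of all genes. The luteolin and quercetin comparisons share the DMI libraries, so the values of Ccl2, Csf1 and Cxcl12 in both rest on the same 3 control libraries.

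Set against each other, the compounds differed in none of the 50 members at the threshold. DMI + luteolin against DMI + quercetin called 0 members by edgeR, with 8 at an unadjusted p under 0.05, and 0 of all 14855 genes (1327 at an unadjusted p under 0.05). DESeq2 called 0 members and 0.0124% of all genes. This was 1 pair of compounds, at doses not given in the labels. The largest difference was in Il2ra, at 3.03, 2.24 and 1.13 CPM in luteolin libraries, against 0.710, 0.303 and 0.491 CPM in quercetin libraries (log2 fold change 2.09, 95% interval 0.80 to 3.38, adjusted p = 0.541). Il33 had 1.92, 1.42 and 4.26 CPM in luteolin libraries, against 4.91, 6.17 and 14.1 CPM in quercetin libraries (log2 fold change -1.73, 95% interval -2.91 to -0.56, adjusted p = 0.541). In both the groups did not overlap, and the intervals do not reach 0 before adjustment.

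Several other members had narrow intervals between the compounds, in a fit that pools the spread over all 4 groups, untreated included. For Il6st the SD was 21.5 CPM with luteolin and 55.9 CPM with quercetin, against 3.68 CPM in untreated cells. Il6st had a log2 fold change of -0.01 (95% interval -0.31 to 0.29), Il1r1 0.09 (-0.18 to 0.36) and Cxcl12 -0.16 (-0.47 to 0.14). Ccl2 had -0.58 (-2.03 to 0.87), so a difference of several-fold between the compounds in this gene was not detectable here. Ccl5 had 2.39, 2.12 and 2.00 CPM in luteolin libraries, against 1.31, 1.62 and 0.920 CPM in quercetin libraries (log2 fold change 0.75, 95% interval 0.13 to 1.36, adjusted p = 0.541). Ccl8 had 1.46, 1.59 and 2.66 CPM in luteolin libraries, against 3.77, 3.89 and 3.62 CPM in quercetin libraries (log2 fold change -0.99, 95% interval -1.87 to -0.11, adjusted p = 0.541). With the third libraries of all induced groups left out, 7 of 52 tested members were called, Il2ra higher with luteolin and Ccl8, Csf1, Cx3cl1, Il11ra1, Il13ra1 and Il33 lower, with 13.8% of all genes called, 6.95% higher and 6.83% lower.

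**Figure D5:**
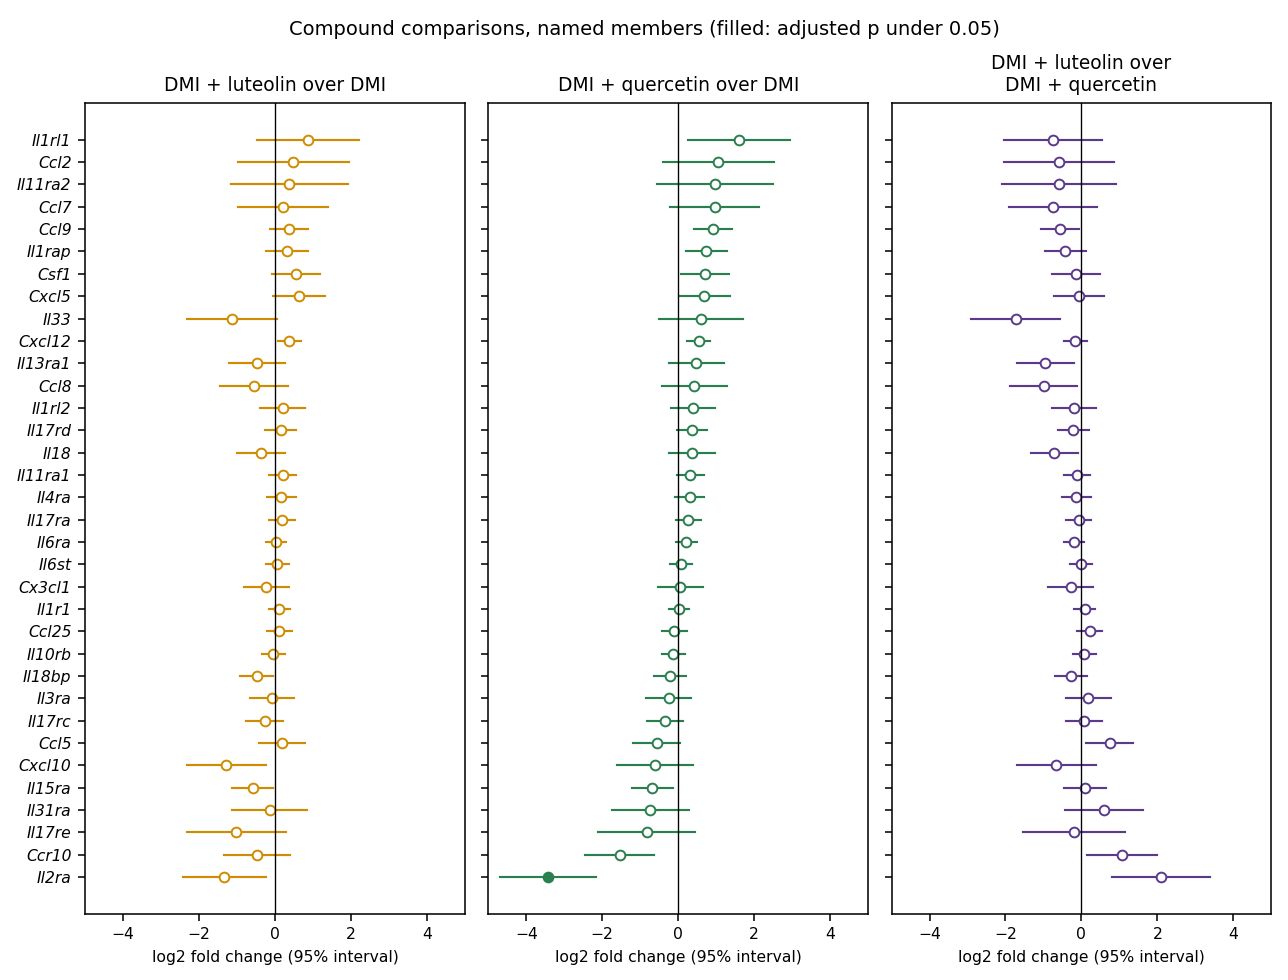
Log2 fold changes of the named members (x axis, log2, the same scale in all panels) in DMI + luteolin over DMI, DMI + quercetin over DMI and DMI + luteolin over DMI + quercetin, with bars for 95% intervals and filled points for an adjusted p under 0.05. The only filled point is Il2ra with quercetin at -3.42.

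The signalling lists gave 1 call in the compound comparisons, for Hp, an acute phase gene. It had 6.88, 5.86 and 1.53 CPM in DMI + quercetin libraries, against 54.0, 65.9 and 11.9 CPM in DMI libraries, and was 9.14-fold lower with quercetin (log2 fold change -3.19, SE 0.62, adjusted p = 0.0469). Jak3 had 25.4, 16.5 and 11.5 CPM in DMI + quercetin libraries, against 51.4, 54.5 and 22.4 CPM in DMI libraries, (adjusted p = 0.0967). None of the 31 NF-kB, TNF and Toll-like receptor genes passed with either compound. Over all genes tested, 1.01% were called with quercetin and 0.0202% with luteolin. At those shares, no call among 31 genes is not a result about this list.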

How the data were processed

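Bulk RNA was measured in 12 libraries, 3 in each of 4 groups taken from titles and treatment labels. The authors deposited raw counts per gene, for which the submitters' processing notes name featureCounts 1.5.0-p3, CASAVA 1.8.2 and the build mm9. For 144 of the 146 members the deposited start and end match GENCODE M21 on GRCm38, the build under which coordinates are given. The sources used here name neither aligner nor strand setting, and the labelled kit keeps no strand, which leaves reads of overlapping or antisense genes mixed. The authors also deposited FPKM values, used only to set levels of different genes side by side, and log2 fold changes with p-values of their own comparisons, with no tool named.

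The test was edgeR's quasi-likelihood test (edgeR 4.0.16, R 4.3.3) on all 12 libraries, with filterByExpr as the low-count filter, TMM as the scaling and a coefficient for each group, so that the spread is pooled over groups. Its p-values were adjusted by Benjamini-Hochberg over all 14855 genes in each of 4 comparisons, with 0.05 as the threshold. CPM were computed on TMM-scaled library totals. Intervals of fold changes are 95% intervals of the fit, and those of count ratios, like the floor of 3 counts, reflect counting error alone. The fit was also run on simulated counts with known changes. That simulation gave all groups the same spread and set no library apart, so it does not show how the fit performs on these libraries. Replicates differed by more than sampling noise in every pair (lowest chi-square per gene 2.78).

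The members, lists and tests were chosen with earlier results of these data known. Named members were those called in any comparison, those with a group mean of 5 CPM or more, the 4 with the smallest p in each comparison, and Cx3cl1, Csf1 and Tnf, 35 in all; others are named beside them for their role and were chosen after their values were seen. From each signalling list up to 3 called genes with the largest fold change in DMI against untreated are named, and every gene called in a compound comparison. For luteolin and DMI the deviations of same-numbered libraries correlated at 0.261, 0.339 and 0.594, each over 0.1, so the fit with the number as a block is given beside that comparison. The main fit has no block, and what a number marks is not given in the labels. Alternatives were RLE scaling, no low-count filter, DESeq2 1.42.0, only the 6 libraries compared, the replicate block and leaving out each library. Leaving out the third libraries of all induced groups, and the block within 6 libraries, were chosen after seeing the data.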

Additional observations from a re-analysis of the deposited data

How the results depend on the processing

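Counts of called members are given in the order DMI over untreated, luteolin over DMI, quercetin over DMI, luteolin over quercetin, and were 15, 0, 1 and 0. Leaving out each library in turn gave 8 to 27, 0 to 2, 0 to 16 and 0 to 0. Without a low-count filter, where every gene with a count is tested, the counts were 19, 3, 11 and 4. DESeq2 gave 19, 0, 4 and 0. RLE scaling gave 16, 0, 1 and 0, and fits with only the 6 libraries compared gave 12, 0, 0 and 0. With the third libraries of all induced groups left out, an alternative chosen after seeing the data, they were 30, 9, 23 and 7; fewer samples with a narrower spread enter that fit by construction. Without the third DMI library alone they were 27, 2, 16 and 0. For the other changes the cause was not tested. No fold change of a called member changed sign under any of these settings. For some settings, among them RLE scaling, no low-count filter and the 6-library fits, the share of all genes called is not given. Those counts show only how calls depend on the setting and are not a result about the members.

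The replicate block over all 12 libraries gave 19, 0, 9 and 0 members. The block within the 6 libraries compared, chosen after seeing the data, gave 14, 6, 5 and 1. With a block, the share of all genes called is given only for luteolin against DMI. The other block counts show only how calls depend on the setting. The pairing rule was met for luteolin against DMI alone, where the block over all libraries changed no call and the block within 6 libraries added 6. In the others the samples share only a number: the correlations of same-numbered libraries were 0.0202, -0.0175 and 0.0237 for DMI and untreated, 0.0681, 0.273 and 0.333 for quercetin and DMI, and 0.0762, 0.0846 and 0.205 for the compounds.

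Of the 96 members that the filter left out, 35 had no count and 36 had 1 to 9 counts over all libraries. Whether depth or lack of expression lies behind these low counts was not tested. The other 25 had 10 counts or more. Il13 and Il1rn were among those 25, and both were called in DMI over untreated by DESeq2 and without a low-count filter.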

Other observations

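The authors' deposited table also compares each compound group with untreated cells. There, by the authors' deposited table, a total of 21 members passed 0.05 for DMI + luteolin against untreated (11 higher, 10 lower), 10 for DMI + quercetin against untreated (4 higher, 6 lower) and 18 for DMI against untreated (10 higher, 8 lower). An adjusted p is given for 87, 88 and 90 members in those comparisons of the authors' deposited table, and 23.5%, 7.65% and 21.5% of all genes with one passed. These 3 comparisons share the untreated libraries. For quercetin against DMI the authors' deposited table called 1 member, Il2ra, with a log2 fold change of -3.43, and for luteolin against DMI and quercetin against luteolin it called 0. Over all genes these comparisons called 1.51%, 0.252% and 0.0663% in the authors' deposited table.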
